A study of Neurospora crassa with 24 samples.

Results

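The 10 genes described here encode enzymes of glycolysis in *Neurospora crassa*, a filamentous fungus, and were picked by name and locus, not by their values, out of 9730 loci. In the order of the pathway they are glucokinase (NCU00575), *emp-1* (hexokinase, NCU02542), *gpi-1* (phosphoglucose isomerase, NCU07281), *emp-3* (phosphofructokinase, NCU00629), *fba* (fructose-bisphosphate aldolase, NCU07807), triosephosphate isomerase (NCU07550), *gpd-1* (glyceraldehyde-3-phosphate dehydrogenase, NCU01528), *pgk* (phosphoglycerate kinase, NCU07914), *emp-7* (enolase, NCU10042) and *ace-8* (pyruvate kinase, NCU06075). All 10 passed the filter on low values, a mean of at least 1 FPKM in at least 1 group, with 7981 genes in all.

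Glycolysis splits glucose into pyruvate. Glucokinase and hexokinase put a phosphate on glucose that has entered the cell, and phosphofructokinase commits the sugar to breakdown. Aldolase then cuts it into a pair of three-carbon sugars, and the enzymes from glyceraldehyde-3-phosphate dehydrogenase to pyruvate kinase oxidise these and return the energy as ATP. Most of the steps run in both directions, but hexose phosphorylation, phosphofructokinase and pyruvate kinase run one way and are bypassed by other enzymes when sugar has to be made rather than used.

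The RNA-Seq compared the deletion mutants Δ*rco-3* and Δ*col-26* with the wild type (WT), strain OR74A, in 4 media. RCO-3 is a transporter-like protein of the cell membrane that senses glucose, and COL-26 is a zinc binuclear cluster transcription factor. Every culture was started from conidia, grown for 16 h at 28 °C with shaking at 200 rpm under constant light on 2% sucrose, washed, and moved for 1 h to Vogel's minimal medium with no carbon source or with glucose at 0.05, 0.5 or 2%. Every one of these 12 groups had 2 libraries, each from its own culture of mycelia, which makes 24. Each mutant was 1 strain from a stock collection. Per the study's methods both mutants were *mat a*, and *mat A-1* was listed at 0 in all 16 mutant libraries, against 1.82 to 11.95 FPKM in the WT, so that mating type and deletion cannot be told apart in the comparisons with the WT.

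The 8 Δ*rco-3* libraries listed *rco-3* at 0, against 5.97 to 21.0 FPKM in the WT. In the Δ*col-26* libraries *col-26* was at 4.91 to 10.6 FPKM, lower than the 16.7 to 39.6 FPKM of the WT but not absent. An estimate of depth, read from the steps between low FPKM values of 20 genes, was between 95.5 and 109% of the median library. It used only genes whose low values shared a common step across the libraries, which favours near-equal depths. It therefore cannot show whether the depths differed more widely, and equal depth was not tested. Over the 120 combinations of member and group, the larger of the 2 library values exceeded the smaller by a median of 1.71% and by at most 7.39%. Genes of conidia, the asexual spores, moved with strain and medium too. The summed FPKM of *con-6*, *con-8*, *con-10* and *eas* was 4621 to 5050 in the mutants without carbon and 368 to 905 in the mutants on glucose, against 352 to 361 in the WT without carbon and 5.05 to 33.4 in the WT on glucose. In bulk RNA a change in the cells present and a change in the RNA of each cell cannot be told apart, and the part of conidiating cells in the results below was not tested.

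The 10 genes lie on chromosomes I (4 genes), II, III, IV (2 genes), V and VII of the NC12 assembly. Examples are glucokinase at I:7953683-7958506, *emp-3* at I:7764287-7768767, *gpd-1* at II:3180104-3182245 and *ace-8* at VII:1892860-1898500. Glucokinase, *emp-3*, triosephosphate isomerase, *pgk* and *ace-8* overlap another annotated gene. Whether the counting used strand is not given in the sources used here, so reads from the shared stretches may have been split between the genes. The overlapping loci that are listed reached at most 8.56 FPKM for *emp-3*, 244 for triosephosphate isomerase, 264 for *pgk* and 178 for *ace-8*.

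FPKM divides the fragments of a gene by its length and by the depth of the library, so levels of different genes can be set side by side. In the WT at 2% glucose the order from high to low was *gpd-1* with 6965 and 7185 FPKM, *emp-7* with 3407 and 3435, *fba* with 1319.6 and 1327, *pgk* with 1124 and 1165, *ace-8* with 717 and 736, triosephosphate isomerase with 531 and 530.1, *gpi-1* with 232 and 238, *emp-3* with 163 and 162, *emp-1* with 152 and 154 and glucokinase with 112 and 107. The libraries of neighbours in this order did not overlap. The genes for the enzymes after the cleavage of the sugar thus stood above those before it, apart from *fba*, and *gpd-1* alone made up 30.5 to 60.4% of the summed FPKM of the 10 genes in the 24 libraries.

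The 10 genes were first summed. As a share of all FPKM of a library it was 0.953 and 0.947 without carbon, 1.39 and 1.40 at 0.05%, 1.27 and 1.28 at 0.5% and 1.49 and 1.48 at 2% glucose in Δ*rco-3*, in percent. In Δ*col-26* the share was 1.48 and 1.46 without carbon, 1.59 and 1.62 at 0.05%, 1.47 and 1.46 at 0.5% and 1.502 and 1.55 at 2% glucose. In the WT it was 0.959 and 0.948 without carbon, 4.47 and 4.42 at 0.05%, 2.98 and 2.95 at 0.5% and 2.40 and 2.47 at 2% glucose. The WT without carbon was the lowest WT group and the WT at 0.05% glucose the highest of all 12 groups. Between the lowest and the highest medium the mean share differed 1.56-fold in Δ*rco-3*, 1.09-fold in Δ*col-26* and 4.66-fold in the WT. On glucose every mutant library was below every WT library. The sum leans on *gpd-1*, and without it the mean share differed 1.21-fold in Δ*rco-3*, 1.15-fold in Δ*col-26* and 4.16-fold in the WT. In Δ*col-26* the order of the media then turned, with 0.735 and 0.725% without carbon as the highest and 0.632 and 0.641% at 0.05% glucose, whereas the WT kept its highest share at 0.05% glucose, 2.33 and 2.34%.

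**Figure D1:**
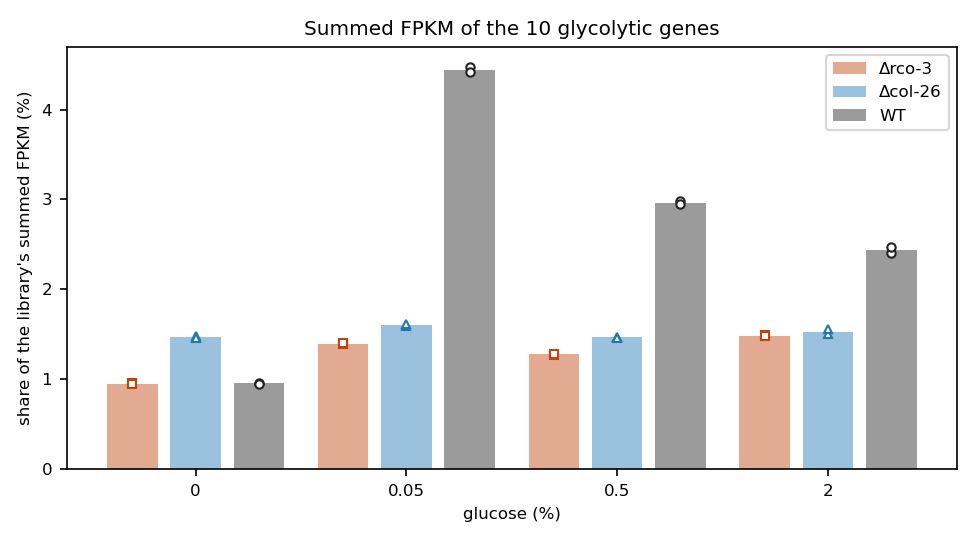
Share of each library's summed FPKM (y axis, in percent, from 0) that came from the 10 glycolytic genes, by glucose in the medium (x axis), with bars for the mean of 2 libraries and points for each library of Δ*rco-3*, Δ*col-26* and the WT. The mutant bars stay between 0.950 and 1.60%, while the WT reaches 4.44% at 0.05% glucose.

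The first question was how the 3 strains answer the removal of sugar. A gene was called a differentially expressed gene (DEG) when the adjusted p of limma (Benjamini-Hochberg over all genes tested) was below 0.001, the log2 fold change was at least 1 in size, which is 2-fold, and the mean was above 20 FPKM in at least 1 group compared. Fold changes were computed on log2(FPKM + 1), and rose and fell are used of DEGs. Because the libraries of a group were so close, the adjusted p alone was passed by 80.9% of all genes in the WT without carbon *vs.* 2% glucose, so most calls were decided by the size of the change.

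In the WT without carbon *vs.* 2% glucose, 1 of the 10 genes rose and 5 fell, where 29.3% of all genes were DEGs, 16.9% rising and 12.4% falling. The median log2 fold change was -1.07 for the 10 genes and 0.31 for all genes. The gene that rose was *emp-1*, by 1.2 ± 0.04 (SE), and those that fell were *ace-8* (-3.92 ± 0.03), *emp-3* (-3.40 ± 0.03), *emp-7* (-2.22 ± 0.03), *gpd-1* (-1.66 ± 0.03) and *pgk* (-1.33 ± 0.03). With the libraries scaled by median ratios instead, which brought the median of all genes to 0.02, the split was 0 up and 7 down, against 13% and 15.8% of all genes.

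In Δ*rco-3* without carbon *vs.* 2% glucose, 4 of the 10 genes fell and none rose, where 19.9% of all genes were DEGs and 8.73% fell. These were *ace-8* (-2.10), *gpd-1* (-1.33), *emp-7* (-1.12) and *emp-3* (-1.06), and the median was -0.13 for the 10 genes and 0.30 for all genes. The call of *emp-3* was lost with a pseudocount of 5, at -0.98. In Δ*col-26*, *pgk* rose (1.09) and *ace-8* fell (-1.56), where 20.8% of all genes were DEGs, 10.3% rising and 10.5% falling. Under median-ratio scaling *pgk* was just short of the fold threshold, at 1.00 after rounding, which left 1 DEG of the 10 in Δ*col-26*. The median of the 10 genes in Δ*col-26* was 0.23, against 0.13 for all genes.

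The lowest glucose dose, not the highest, was the peak for 8 of the 10 genes in the WT, a count not made for all genes. The exceptions were *ace-8*, highest at 0.5% glucose, and *emp-1*, highest without carbon, though not under median-ratio scaling. A comparison of no carbon with 0.05% glucose was therefore added after these values were seen, and it describes a contrast chosen for its size. In it 8 genes of the WT fell and none rose, with a median of -2.29 for the 10 genes, where 26.8% of all genes were DEGs and 9.32% fell. In Δ*rco-3* 1 rose and 2 fell (17.9% of all genes were DEGs, 9.84% rising and 8.09% falling), with 0 and 4 under median-ratio scaling. In Δ*col-26* 2 rose and 1 fell (21.7%, with 11.1% rising and 10.6% falling), with 1 and 2 under median-ratio scaling. Triosephosphate isomerase in the WT lost its call without replicate 1 of the group without carbon, and *emp-1* in Δ*rco-3* without replicate 2 of the group without carbon (0.98) or of the group at 0.05% glucose (0.96).

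**Figure D2:**
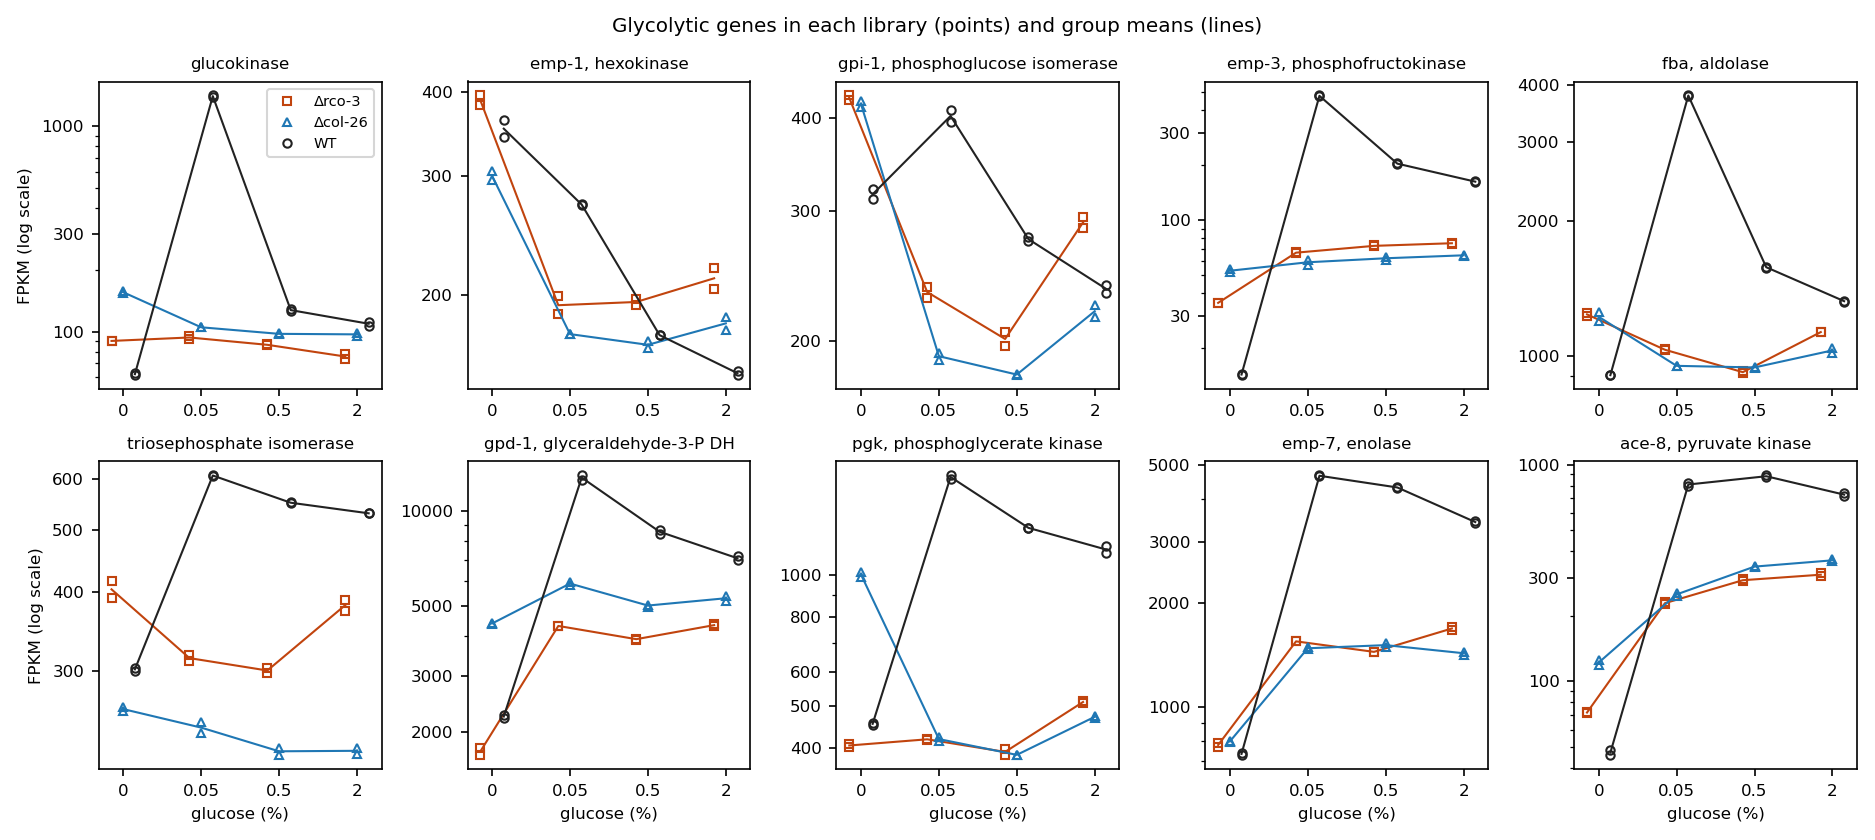
FPKM (y axes, log scales that differ between panels) of the 10 glycolytic genes in each library (points, 2 per group) by glucose in the medium (x axis, percent), for Δ*rco-3*, Δ*col-26* and the WT, with lines through the group means. Glucokinase reaches 1395 and 1415 FPKM in the WT at 0.05% glucose and at most 158 in any mutant library.

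Glucokinase, which like hexokinase phosphorylates incoming glucose, had the widest range of the 10 genes over the 3 glucose doses in the WT, 12.9-fold between its means, against 1.24-fold in the Δ*rco-3* mutant and 1.08-fold in Δ*col-26*. Its levels in Δ*rco-3* were 90.1 and 90.2 without carbon, 95.4 and 92.0 at 0.05%, 85.8 and 86.8 at 0.5% and 77.6 and 73.8 at 2% glucose, in FPKM. In Δ*col-26* they were 154 and 158 without carbon, 105 and 105 at 0.05%, 97.2 and 98.0 at 0.5% and 98.9 and 95.2 at 2% glucose. In the WT they were 61.3 and 62.8 without carbon, 1395 and 1415 at 0.05%, 129 and 126 at 0.5% and 112 and 107 at 2% glucose. The WT libraries at 0.05% glucose stood alone, and every other library of any strain held between 61.3 and 158 FPKM. At 0.05% glucose the mutants were 15.0-fold (Δ*rco-3*) and 13.4-fold (Δ*col-26*) below the WT, with log2 fold changes of -3.89 ± 0.03 and -3.73 ± 0.03 (limma with Benjamini-Hochberg adjusted p of 3.95e-25 and 8.97e-25). Without carbon the direction was the opposite, with log2 fold changes of 0.53 in Δ*rco-3*, which was no DEG, and 1.31 in Δ*col-26*, which was one.

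Hexokinase, encoded by *emp-1*, carries out the same reaction but did not follow glucokinase. Its FPKM were 382 and 395 without carbon, 199 and 187 at 0.05%, 197 and 193 at 0.5% and 219 and 204 at 2% glucose in Δ*rco-3*. Those of Δ*col-26* were 305 and 296 without carbon, 175 and 175 at 0.05%, 171 and 167 at 0.5% and 185 and 178 at 2% glucose. The WT had 342 and 363 without carbon, 271 and 273 at 0.05%, 175 and 174 at 0.5% and 152 and 154 at 2% glucose. In all 3 strains the libraries without carbon were the highest and did not overlap with those on glucose. For the WT this depended on the scaling. Its log2 fold change without carbon *vs.* 0.05% glucose was 0.37, and -0.22 under median-ratio scaling. No comparison of a mutant with the WT in the same medium called *emp-1* a DEG, with log2 fold changes between -0.63 and 0.46. Under median-ratio scaling the Δ*rco-3* *vs.* WT change at 0.05% glucose passed, at -1.10, and the small positive change at 0.5% glucose turned to -0.13.

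The ratio of glucokinase to hexokinase FPKM within a library joins the 2 patterns and does not depend on the scaling of the library. It was 0.236 and 0.229 without carbon, 0.479 and 0.492 at 0.05%, 0.435 and 0.449 at 0.5% and 0.354 and 0.361 at 2% glucose in Δ*rco-3*. For Δ*col-26* it was 0.504 and 0.533 without carbon, 0.600 and 0.600 at 0.05%, 0.569 and 0.587 at 0.5% and 0.533 and 0.535 at 2% glucose. In the WT it was 0.179 and 0.173 without carbon, 5.14 and 5.18 at 0.05%, 0.737 and 0.723 at 0.5% and 0.733 and 0.694 at 2% glucose. Glucokinase exceeded hexokinase in the WT libraries at 0.05% glucose and in no other library.

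*gpi-1*, whose enzyme turns glucose-6-phosphate into fructose-6-phosphate, changed least among the 10 genes in the WT over the 4 media, and it was the single gene there that did not pass the F test described below. It had 229 and 237 FPKM in the Δ*rco-3* mutant and 189 and 193 in Δ*col-26* at 0.05% glucose, against 395 and 411 in the WT. The mutant libraries were below those of the WT, and the change was a DEG in Δ*col-26* (-1.07 ± 0.03) but not in Δ*rco-3* (-0.79 ± 0.03), where it passed under median-ratio scaling (-1.39). Without carbon the order was the reverse, with 429 and 423 in the Δ*rco-3* mutant and 422 and 415 in Δ*col-26*, against 321 and 311 in the WT, and neither mutant passed the fold threshold.

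*emp-3*, encoding phosphofructokinase, had the widest range of the 10 genes over the 12 groups. Its FPKM in Δ*rco-3* were 35.5 and 35.4 without carbon, 66.8 and 66.3 at 0.05%, 71.9 and 73.0 at 0.5% and 75.2 and 74.6 at 2% glucose. In Δ*col-26* they were 52.1 and 54.0 without carbon, 57.1 and 60.9 at 0.05%, 63.2 and 60.8 at 0.5% and 63.9 and 64.9 at 2% glucose. In the WT they were 14.3 and 14.6 without carbon, 474 and 478 at 0.05%, 203 and 204 at 0.5% and 163 and 162 at 2% glucose. The WT held both the lowest group, without carbon, and the highest, at 0.05% glucose, and all mutant libraries lay between 35.4 and 75.2 FPKM. *emp-3* was a DEG in each of the 8 comparisons of a mutant with the WT, higher without carbon (1.24 ± 0.03 in the Δ*rco-3* mutant and 1.81 ± 0.03 in Δ*col-26*) and lower on glucose. At 0.05% glucose the log2 fold changes were -2.82 and -2.99, at 0.5% -1.48 and -1.70, and at 2% -1.10 and -1.32, Δ*rco-3* first.

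*fba*, the aldolase gene, shared the peak at 0.05% glucose. It had 1034 and 1029 FPKM in the Δ*rco-3* mutant and 948 and 951 in Δ*col-26* there, against 3799 and 3799.8 in the WT. At 2% glucose it had 1129 and 1129.6 in the Δ*rco-3* mutant and 1014 and 1042 in Δ*col-26*, against 1319.6 and 1327 in the WT. In both media the mutants lay below the WT without overlap, but the change was a DEG at 0.05% (-1.88 ± 0.03 and -2.0 ± 0.03) and not at 2% glucose (-0.23 ± 0.03 and -0.36 ± 0.03). Without carbon both mutants lay above the WT, by 0.45 and 0.43, short of a call.

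Triosephosphate isomerase, which interconverts the pair of three-carbon sugars, separated the mutants. It had 416 and 391 without carbon, 318 and 311 at 0.05%, 304 and 298 at 0.5% and 389 and 374 at 2% glucose in Δ*rco-3*, in FPKM. Δ*col-26* had 264 and 260.5 without carbon, 250.2 and 240.0 at 0.05%, 222 and 228 at 0.5% and 223 and 228 at 2% glucose. The WT had 300.4 and 304 without carbon, 607 and 608 at 0.05%, 552 and 550.0 at 0.5% and 531 and 530.1 at 2% glucose. In every medium the Δ*rco-3* libraries were above the Δ*col-26* libraries, and on glucose both were below the WT. It was a DEG in Δ*col-26* *vs.* WT at all 3 glucose doses (-1.31 at 0.05%, -1.29 at 0.5% and -1.23 at 2%) and in Δ*rco-3* *vs.* WT at none (-0.95, -0.87 and -0.48), though under median-ratio scaling it passed in Δ*rco-3* at 0.05 and 0.5% glucose too. Between the mutants the log2 difference, Δ*rco-3* minus Δ*col-26*, was 0.75 ± 0.03 at 2% glucose, below 2-fold but with an adjusted p of 1.36e-13 (limma, Benjamini-Hochberg). It was 0.62 without carbon, 0.36 at 0.05% and 0.42 at 0.5% glucose. The median of all genes lay in the same direction, at 0.36 without carbon and 0.23, 0.20 and 0.16 at 0.05, 0.5 and 2% glucose.

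*gpd-1*, also named *ccg-7* as a clock-controlled gene, encodes the enzyme that oxidises glyceraldehyde-3-phosphate. Its FPKM in Δ*rco-3* were 1776 and 1684 without carbon, 4327 and 4312 at 0.05%, 3912 and 3932 at 0.5% and 4321 and 4368 at 2% glucose. In Δ*col-26* they were 4426 and 4368 without carbon, 5837 and 5929 at 0.05%, 5049 and 4975 at 0.5% and 5182 and 5390.3 at 2% glucose. In the WT they were 2249 and 2213 without carbon, 12955 and 12528 at 0.05%, 8705 and 8465 at 0.5% and 6965 and 7185 at 2% glucose. On glucose the order was WT, Δ*col-26*, Δ*rco-3* from high to low with no overlap, and without carbon it was Δ*col-26*, WT, Δ*rco-3*. *gpd-1* fell in both mutants at 0.05% glucose (-1.56 in the Δ*rco-3* mutant and -1.11 in Δ*col-26*) and in Δ*rco-3* at 0.5% (-1.13), and was no DEG at 2% glucose (-0.70 and -0.42) or without carbon (-0.37 and 0.98). Under median-ratio scaling it passed in Δ*rco-3* at 2% glucose (-1.004) and in Δ*col-26* without carbon (1.12).

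*pgk*, whose enzyme makes the first ATP of the pathway, differed between the mutants when carbon was absent. Its FPKM in Δ*rco-3* were 409.9 and 402 without carbon, 418 and 421 at 0.05%, 387 and 398 at 0.5% and 514 and 508 at 2% glucose. In Δ*col-26* they were 989.8 and 1018 without carbon, 416 and 423 at 0.05%, 386 and 387 at 0.5% and 469.6 and 475 at 2% glucose. In the WT they were 452 and 458 without carbon, 1697 and 1667 at 0.05%, 1284 and 1285 at 0.5% and 1124 and 1165 at 2% glucose. On glucose the mutants were close to each other and both below the WT without overlap, with log2 fold changes of -2.0 and -2.0 at 0.05%, -1.71 and -1.73 at 0.5% and -1.16 and -1.28 at 2% glucose, Δ*rco-3* first. Without carbon Δ*col-26* stood above the WT (1.14 ± 0.03, a DEG) and Δ*rco-3* did not (-0.17 ± 0.03).

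*emp-7*, the enolase gene, was the second most abundant of the 10 in the WT on glucose. It had 1549 and 1549.5 FPKM in the Δ*rco-3* mutant and 1469 and 1489.9 in Δ*col-26* at 0.05% glucose, against 4639 and 4666 in the WT. Without carbon it had 769 and 788 in the Δ*rco-3* mutant and 802 and 792 in Δ*col-26*, against 728 and 739 in the WT. The mutants thus lay well below the WT on glucose and slightly above it without carbon, where the changes were 0.09 and 0.12. The median of all genes without carbon was 0.22 in Δ*rco-3*, above the change of *emp-7*, and -0.15 in Δ*col-26*. *emp-7* fell in both mutants at each glucose dose, by 3.0-fold in the Δ*rco-3* mutant and 3.14-fold in Δ*col-26* at 0.05%, and by 2.03-fold and 2.39-fold at 2% glucose.

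*ace-8*, encoding pyruvate kinase, the last enzyme of the pathway, had the widest range over the media of the 10 genes in each mutant. Its FPKM in Δ*rco-3* were 71.6 and 72.1 without carbon, 233 and 226 at 0.05%, 289 and 297 at 0.5% and 315 and 306 at 2% glucose. In Δ*col-26* they were 119 and 125 without carbon, 248 and 256 at 0.05%, 337 and 339 at 0.5% and 358 and 365 at 2% glucose. In the WT they were 48.2 and 45.7 without carbon, 797 and 821 at 0.05%, 875 and 892 at 0.5% and 717 and 736 at 2% glucose. In the mutants the group means went up with each step in glucose, whereas in the WT they were highest at 0.5%, and *ace-8* was the only one of the 10 genes that was a DEG without carbon *vs.* 2% glucose in all 3 strains, lower without carbon in each. Against the WT it fell in both mutants at each glucose dose, with -1.81 and -1.68 at 0.05%, -1.59 and -1.38 at 0.5% and -1.22 and -1.0 at 2% glucose, Δ*rco-3* first. The call in Δ*col-26* at 2% glucose lay on the fold threshold and was lost without WT replicate 2 (-0.99) or Δ*col-26* replicate 1 (-0.99) and with a pseudocount of 5.

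**Figure D3:**
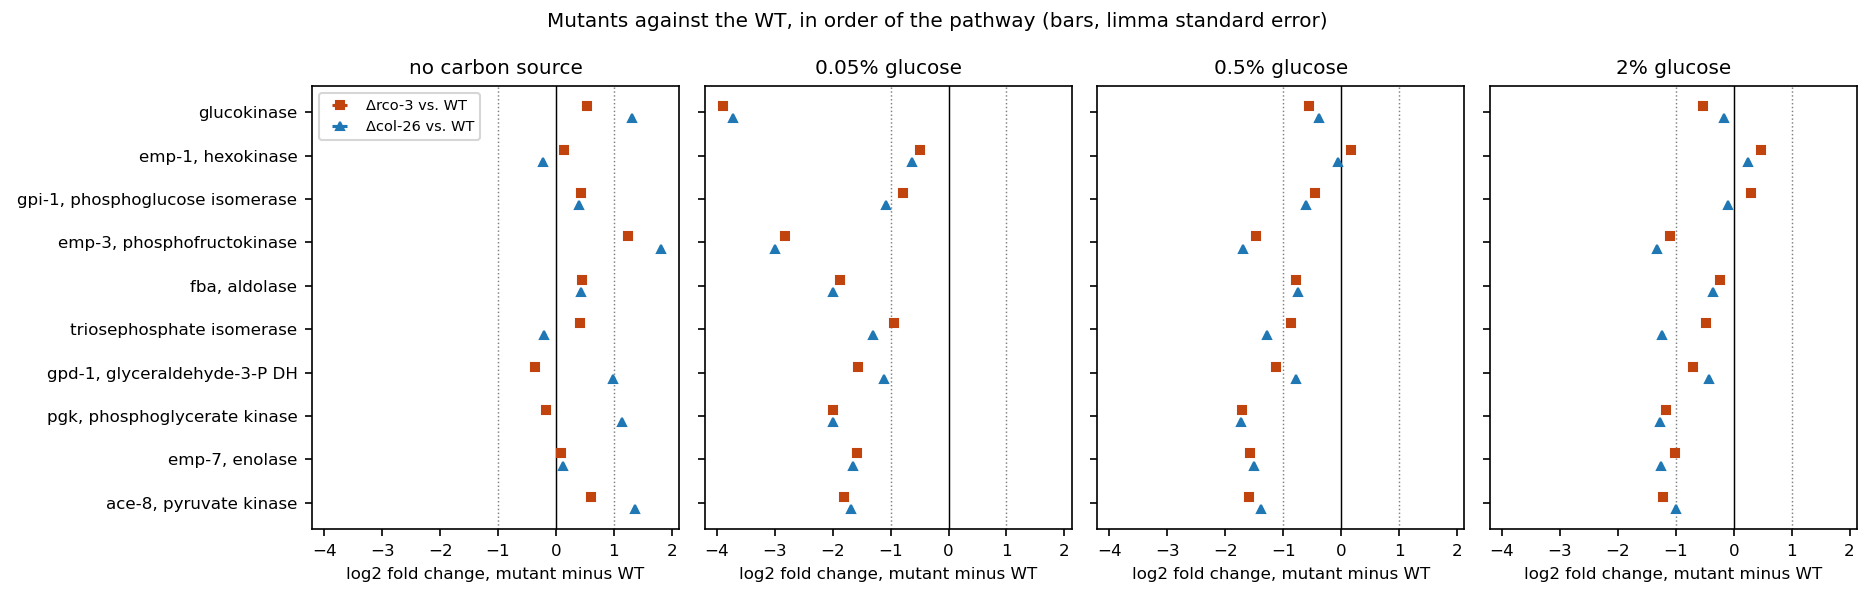
Log2 fold change of each mutant against the WT (x axis, on log2(FPKM + 1)) for the 10 glycolytic genes in pathway order (y axis), 1 panel per medium, with bars for the standard error of limma, mostly hidden by the points, and dotted lines at 2-fold. At 0.05% glucose all points lie left of 0, from -3.89 to -0.49 in the Δ*rco-3* mutant and from -3.73 to -0.63 in Δ*col-26*.

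Counted over the pathway, Δ*rco-3* *vs.* WT at 0.05% glucose had 7 of the 10 genes down and none up, where 12.3% of all genes were DEGs and 3.02% fell. The median was -1.70 for the 10 genes and 0.50 for all genes. All 10 had both mutant libraries below both WT libraries, as 18.5% of all genes did. At 0.5% glucose 5 fell (6.48% of all genes were DEGs and 2% fell), with medians of -1.0 and 0.24, and at 2% glucose 4 fell (8.01% and 2.63%), with medians of -0.61 and 0.21. Without carbon 1 rose (4.07% were DEGs and 1.92% rose), with medians of 0.42 and 0.22. Median-ratio scaling, which set the median of all genes near 0, gave 10 genes down at 0.05% (7% of all genes fell), 7 at 0.5% (3.5%), 5 at 2% glucose (5.11%) and 1 up without carbon (1.03% rose).

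For Δ*col-26* *vs.* WT the count was 9 down and none up at 0.05% glucose, where 9.35% of all genes were DEGs and 3.5% fell, with medians of -1.67 for the 10 genes and 0.27 for all genes. The exception was *emp-1*, at -0.63. At 0.5% glucose 5 fell (6.74% and 2.49%), with medians of -1.03 and 0.03, and at 2% glucose 5 fell (8.91% and 2.96%), with medians of -0.71 and 0.05. Without carbon 4 rose and none fell (9.64% were DEGs and 4.62% rose), with medians of 0.70 and -0.15. Those 4 were *emp-3*, *ace-8*, glucokinase and *pgk*. Both mutants were set against the same WT libraries, so their changes are not independent of each other. The split of all DEGs between the directions moved under median-ratio scaling, to 5.91% falling at 0.05% glucose and 5.13% rising without carbon, with 9 members down and 5 up.

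Set directly against each other, Δ*rco-3* and Δ*col-26* differed in 2 of the 10 genes without carbon, where 5.31% of all genes were DEGs and 2.84% were lower in Δ*rco-3*. Both were lower in Δ*rco-3*, *gpd-1* by -1.35 ± 0.03 and *pgk* by -1.30 ± 0.03. Under median-ratio scaling glucokinase (-1.16) and *ace-8* (-1.13) joined them. On glucose none of the 10 was a DEG at any dose, where 1.4, 1.27 and 2.33% of all genes were at 0.05, 0.5 and 2%, but 6, 7 and 10 of the 10 passed the adjusted p of limma alone, as 51.7, 47.6 and 49.4% of all genes did. The log2 differences ran between -0.45 for *gpd-1* at 0.05% and 0.75 for triosephosphate isomerase at 2% glucose, so that small differences were measured rather than none. The median of all genes was 0.16 to 0.23 there. Of the members' differences on glucose that passed the adjusted p, 8 changed sign under median-ratio scaling, and sign changes among the rest were not counted.

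The second question was whether the strains tell low from intermediate glucose. In the WT at 0.05% *vs.* 0.5% glucose 3 genes rose and none fell, where 7.47% of all genes were DEGs and 3.62% rose, with medians of 0.56 for the 10 genes and -0.18 for all genes. They were glucokinase (3.45 ± 0.03), *fba* (1.27 ± 0.03) and *emp-3* (1.22 ± 0.03), 2 of them encoding enzymes of one-way steps. In Δ*rco-3* none of the 10 was a DEG, where 0.0501% of all genes were, and 3 passed the adjusted p of limma alone, which 13.9% of all genes did. In Δ*col-26* none was either (0.238%), and 2 passed the adjusted p alone (9.02%). The largest changes in the mutants were those of *ace-8*, -0.35 in the Δ*rco-3* mutant and -0.42 in Δ*col-26*. At 0.5% *vs.* 2% glucose no member was a DEG in any strain, where 0.802, 0.476 and 0.288% of all genes were in Δ*rco-3*, Δ*col-26* and the WT. By the adjusted p of limma alone 6, 3 and 9 of them passed, against 18.9, 17.1 and 15.5% of all genes. In the WT all 10 were higher at 0.5% without overlap, as 27.9% of all genes were, by 0.05 to 0.33 on the log2 scale, and in Δ*rco-3* 9 of the 10 were lower at 0.5% without overlap, as 32.6% of all genes were.

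**Figure D4:**
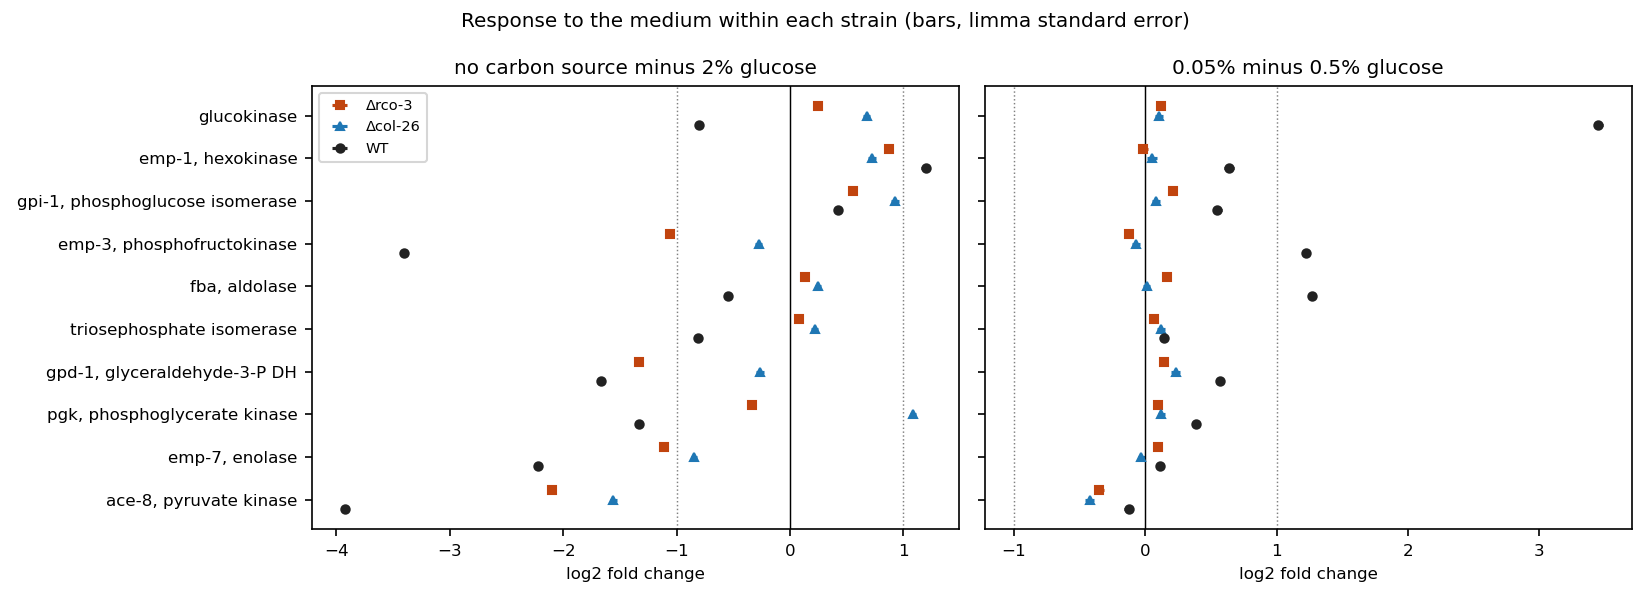
Log2 fold change within Δ*rco-3*, Δ*col-26* and the WT (x axes) of the 10 glycolytic genes in pathway order (y axis), for no carbon source against 2% glucose (left) and 0.05% against 0.5% glucose (right), with bars for the standard error of limma, mostly hidden by the points, and dotted lines at 2-fold. The mutants sit closer to 0 than the WT for *emp-3* and *ace-8* on the left and for glucokinase, *emp-3* and *fba* on the right.

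Whether these responses differed between the strains was tested as the difference of 2 fold changes in the same fit, mutant minus WT. For no carbon *vs.* 2% glucose the difference passed for 4 genes in Δ*rco-3*, all positive (13.7% of all genes passed and 4.74% were positive), and for 7 in Δ*col-26*, all positive (15.1% and 4.03%). The largest was that of *emp-3*, with 2.35 ± 0.04 in the Δ*rco-3* mutant and 3.13 ± 0.04 in Δ*col-26*. For 0.05% *vs.* 0.5% glucose it passed for 3 genes in each mutant, all negative (7.84% of all genes and 3.31% negative for Δ*rco-3*, against 7.69% and 3.72% for Δ*col-26*). These were glucokinase (-3.34 ± 0.04 and -3.35 ± 0.04), *emp-3* (-1.34 ± 0.04 and -1.30 ± 0.04) and *fba* (-1.10 ± 0.04 and -1.26 ± 0.04), Δ*rco-3* first. *pgk* in Δ*rco-3* fell just short for no carbon *vs.* 2% glucose, at 1.00 after rounding, and passed when any of 4 single libraries was left out. Under median-ratio scaling it passed (1.06), as did *fba* in Δ*col-26* (1.05).

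An F test over the 4 media, in which the group means also had to span at least 1 log2 unit, was passed by 6 of the 10 genes in Δ*rco-3* (23% of all genes), 3 in Δ*col-26* (24.7%) and 9 of the WT (36.8%). The 3 of Δ*col-26* were *gpi-1*, *pgk* and *ace-8*. The count was 5 in Δ*rco-3* without replicate 2 of the group without carbon or of that at 0.05% glucose, and 8 in the WT without replicate 1 of the group without carbon. The ratio of the highest to the lowest medium mean was 1.24 to 4.32 in Δ*rco-3* with a median of 2.06, 1.16 to 2.96 in Δ*col-26* with a median of 1.69, and 1.71 to 33.0 in the WT with a median of 4.95. Over the 3 glucose doses alone it was 1.10 to 1.44 in Δ*rco-3*, 1.06 to 1.44 in Δ*col-26* and 1.15 to 12.9 in the WT, with medians of 1.23, 1.09 and 1.74. The medium with the highest mean also differed: in Δ*col-26* it was the one without carbon for 6 of the 10 genes, in Δ*rco-3* that with 2% glucose for 5. Peaks were not counted for all genes. Their median change without carbon *vs.* 2% glucose was 0.13 in Δ*col-26* and 0.30 in Δ*rco-3*.

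The steps of glycolysis that run one way are opposed by other enzymes, and 12 genes of adjoining pathways were set beside the 10. Fructose-1,6-bisphosphatase, encoded by *fbp-1*, reverses the phosphofructokinase step. It had 567 and 572 without carbon, 51.3 and 48.3 at 0.05%, 27.4 and 26.9 at 0.5% and 23.1 and 23.8 at 2% glucose in Δ*rco-3*, in FPKM. In Δ*col-26* it had 402 and 409 without carbon, 60.04 and 61.2 at 0.05%, 24.1 and 24.2 at 0.5% and 36.6 and 36.6 at 2% glucose, and in the WT 2211 and 2239.5 without carbon, 9.28 and 10.5 at 0.05%, 3.68 and 3.87 at 0.5% and 3.98 and 3.46 at 2% glucose. All strains raised it without carbon, but the mutants less, and on glucose the mutant libraries stayed above every WT library. Against the WT the log2 fold changes were -1.96 and -2.45 without carbon and 2.37 and 3.0 at 2% glucose, Δ*rco-3* first, all DEGs.

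The FPKM of *emp-3* over that of *fbp-1* within a library set the forward step against its reverse. It was 0.0626 and 0.0618 without carbon, 1.30 and 1.37 at 0.05%, 2.63 and 2.71 at 0.5% and 3.25 and 3.14 at 2% glucose in Δ*rco-3*. For Δ*col-26* it was 0.130 and 0.132 without carbon, 0.951 and 0.995 at 0.05%, 2.63 and 2.51 at 0.5% and 1.74 and 1.77 at 2% glucose. In the WT it was 0.00646 and 0.00650 without carbon, 51.1 and 45.7 at 0.05%, 55.1 and 52.7 at 0.5% and 40.9 and 46.8 at 2% glucose. All libraries without carbon lay below 1 and those of the WT lowest, and all WT libraries on glucose lay above 40, where no mutant library passed 3.25.

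The pyruvate kinase step is bypassed by phosphoenolpyruvate carboxykinase, encoded by *acu-6*. The ratio of *ace-8* to *acu-6* was 0.152 and 0.161 without carbon, 1.57 and 1.45 at 0.05%, 2.51 and 2.48 at 0.5% and 5.03 and 4.81 at 2% glucose in Δ*rco-3*. For Δ*col-26* it was 0.0557 and 0.0599 without carbon, 0.462 and 0.465 at 0.05%, 1.09 and 1.13 at 0.5% and 0.870 and 0.826 at 2% glucose. In the WT it was 0.0129 and 0.0137 without carbon, 3.41 and 3.52 at 0.05%, 83.1 and 79.8 at 0.5% and 42.7 and 45.2 at 2% glucose. The span between media was again widest in the WT, and on glucose the WT stood above Δ*rco-3* and Δ*rco-3* above Δ*col-26*. *acu-6* itself fell without carbon in Δ*rco-3* against the WT (469.9 and 447 FPKM, against 3742 and 3349.7 FPKM, log2 fold change -2.95). It rose at 2% glucose in Δ*col-26* (412 and 442 FPKM, against 16.8 and 16.3 FPKM, 4.61). The other mutant lay on the same side of the WT in both media, with means of 2113 FPKM in Δ*col-26* without carbon and 63.1 FPKM in Δ*rco-3* at 2% glucose. At 0.5% glucose both mutants were higher, with means of 117 (Δ*rco-3*) and 305 FPKM (Δ*col-26*), against 10.85 FPKM in the WT. Only at 0.05% glucose did they part, with 152 and 543 FPKM, against 234 FPKM in the WT.

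**Figure D5:**
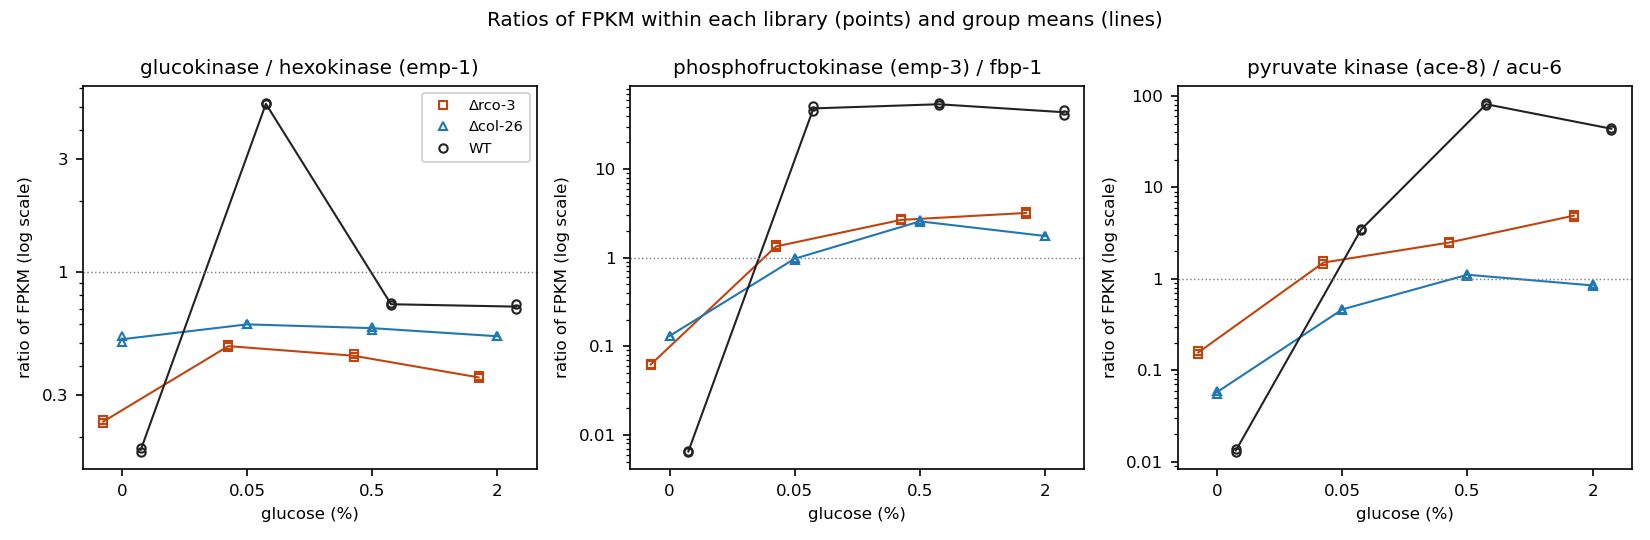
Ratios of FPKM within each library (points, 2 per group; y axes, log scale) by glucose in the medium (x axis, percent), for Δ*rco-3*, Δ*col-26* and the WT, with lines through the group means and a dotted line at 1. From left to right they are glucokinase over hexokinase, phosphofructokinase over fructose-1,6-bisphosphatase and pyruvate kinase over phosphoenolpyruvate carboxykinase, and in each the WT spans the widest range.

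Of the 12 adjoining genes, 2 rose and 4 fell in each mutant without carbon *vs.* 2% glucose, where 11.2% of all genes rose and 8.73% fell in the Δ*rco-3* mutant and 10.3% rose and 10.5% fell in Δ*col-26*. In the WT 2 rose and 5 fell, where 16.9% of all genes rose and 12.4% fell, so that the rising share was near that of all genes. Against the WT at 0.05% glucose 2 rose and 3 fell in Δ*rco-3* (9.25% and 3.02% of all genes), and 2 rose and 2 fell in Δ*col-26* (5.85% and 3.5%). *emp-6*, whose symbol places it in the same Embden-Meyerhof series, fell in both mutants at 0.05% glucose (-2.45 in the Δ*rco-3* mutant and -2.34 in Δ*col-26*). So did *cfp*, the pyruvate decarboxylase gene that opens the way to ethanol, with 358 and 391 FPKM in the Δ*rco-3* mutant and 624 and 657 FPKM in Δ*col-26*, against 4118 and 4137 FPKM in the WT. *ace-2*, for a subunit of pyruvate dehydrogenase, did not pass in either mutant at that dose (0.07 and 0.16). Without carbon *cfp* had 141 and 143 FPKM in the Δ*rco-3* mutant and 1428 and 1406 in Δ*col-26*, against 95.8 and 96.3 in the WT, where Δ*col-26* stood apart as it did for *pgk* and *gpd-1*. Of the 4 genes of the pentose phosphate pathway, which shares glucose-6-phosphate with glycolysis, *ppm-2* fell in the WT without carbon (-1.86) and NCU00519 rose in Δ*rco-3* at 0.05% glucose (1.12).

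The 10 genes did not all share 1 pattern. Over the 12 group means of log2(FPKM + 1), which share libraries and strains, Pearson's r of the 45 pairs ran between -0.74 and 0.94 with a median of 0.58. The closest pairs were *emp-7* with *ace-8* (0.94) and glucokinase with *fba* (0.94), and the farthest was *emp-1* with *ace-8* (-0.74). Among 4744 genes above 20 FPKM in at least 1 group and outside the 10, the genes most like *ace-8* were *emp-6* (r = 0.98) and NCU08375 (0.97), those most like *gpd-1* were NCU06532 (0.98) and NCU03651 (0.96), those most like *emp-3* were *cmt* (0.96) and NCU09649 (0.95), and those most like glucokinase were NCU09676 (0.96) and NCU05563 (0.95), each over the 12 groups.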

How the data were processed

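RNA-Seq of 3 strains in 4 media was used, 24 libraries, each assigned by its sample title. Per the methods and labels, the authors ran Trimmomatic 0.36, an aligner (Bowtie2 in the methods, HISAT2 2.1.0 in the submitters' processing notes) against predicted OR74A transcripts, and RSEM 1.2.8. They deposited FPKM values, with no counts, so no count model was run. Of 9730 loci 9729 matched the RefSeq annotation of the same assembly, NC12.

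All 12 groups entered 1 limma 3.58.1 fit (R 4.3.3) on log2(FPKM + 1), with trend, 12 residual and 6.31 prior degrees of freedom and 28 contrasts, of which 4 were differences of responses. P-values were adjusted by Benjamini-Hochberg over 7981 genes. The fit was tested on simulated data. Likeness was computed in Python. Alternatives were pseudocounts of 0.1 and 5, no filter, no trend, only the groups compared, median-ratio scaling (7896 genes), a replicate block, an adjusted p below 0.05 and each library left out. The comparison of no carbon with 0.05% glucose was added after the data were seen.

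The members, lists and tests were chosen with earlier results of these data known. All 10 members were named. The adjoining genes were found by RefSeq symbol or the study's annotation, since the reference table holds no product names, and those named had the largest changes of their list or stood for a bypass. Sequences were not used here.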

Additional observations from a re-analysis of the deposited data

Results flagged for a closer look

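The response to the medium differed between a mutant and the WT for these genes, by the difference of 2 log2 fold changes in the limma fit, mutant minus WT, with the thresholds of the report. For no carbon source against 2% glucose the difference in Δ*rco-3* was 2.35 for *emp-3*, 1.83 for *ace-8*, 1.10 for *emp-7* and 1.06 for glucokinase. In Δ*col-26* it was 3.13 for *emp-3*, 2.41 for *pgk*, 2.36 for *ace-8*, 1.48 for glucokinase, 1.40 for *gpd-1*, 1.37 for *emp-7* and 1.02 for triosephosphate isomerase. For 0.05% against 0.5% glucose it was -3.34 for glucokinase, -1.34 for *emp-3* and -1.10 for *fba* in Δ*rco-3*, and -3.35 for glucokinase, -1.30 for *emp-3* and -1.26 for *fba* in Δ*col-26*. Both mutants share the WT libraries. The summed FPKM of the conidiation markers moved between the same groups, as the report gives it, and its part in these differences was not tested.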

How the results depend on the processing

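The counts of DEGs among the 10 genes stayed within 1.5 times the reported count under pseudocounts of 0.1 and 5, no filter on low values, no variance trend, a fit of the groups compared alone and an adjusted p below 0.05. Median-ratio scaling moved 2 counts by more than that, to 1 in Δ*col-26* without carbon *vs.* 2% glucose (2 reported) and to 4 between the mutants without carbon (2 reported), and 4 and 16 single calls were lost and gained. Reversals of sign under this scaling were counted only among log2 fold changes with a reported adjusted p below 0.001 (limma, Benjamini-Hochberg). There were 14, all small and none of them a call. In Δ*rco-3* without carbon *vs.* 2% glucose they became -0.021 for glucokinase and -0.14 for *fba*, and in the WT without carbon *vs.* 0.05% glucose -0.22 for *emp-1*. In Δ*rco-3* *vs.* WT they became -0.13 for *emp-1* at 0.5% and -0.0021 for *gpi-1* at 2% glucose. Between the mutants, Δ*rco-3* minus Δ*col-26*, they became -0.0082 for *emp-1* without carbon, -0.0042 for *gpi-1*, -0.11 for *emp-3* and -0.17 for *fba* at 0.05%, -0.046 for *emp-1*, -0.10 for *gpi-1* and -0.032 for *emp-3* at 0.5%, and -0.057 for *fba* and -0.080 for *pgk* at 2% glucose. This scaling sets the median of all genes near 0, and the cause of the shift it removes was not tested.

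With each library left out in turn, the count was 4 to 5 in Δ*col-26* *vs.* WT at 2% glucose, 7 to 8 in the WT and 2 to 3 in Δ*rco-3* without carbon *vs.* 0.05% glucose, 4 to 5 for the no carbon *vs.* 2% difference of Δ*rco-3* and the WT, and 8 to 9 (WT) and 5 to 6 (Δ*rco-3*) in the F test. The other counts did not move. The genes behind these counts lay at the 2-fold threshold: *ace-8*, triosephosphate isomerase, *emp-1*, *emp-7* and *pgk*. The replicate numbers showed no pairing common to all groups. Over 66 pairs of groups, r of their deviations was between -0.43 and 0.25 with a median of -0.01. It was over 0.1 in 10 pairs and under -0.1 in 10. These values cannot show whether the libraries of some groups were handled together. A fit with the replicate number as a block left all counts as reported, for example 7 (Δ*rco-3*) and 9 (Δ*col-26*) against the WT at 0.05% glucose.

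Each group has 2 libraries, the values hold no read counts, and changes are relative to the other RNA of the library.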
